A study of Mus musculus with 25 samples.

Results

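The genes described here are 10 that build and label lipoproteins, the particles in which lipid travels in plasma: *Apoa1*, *Apoa2*, *Apoa4*, *Apoa5*, *Apob*, *Apoc2*, *Apoc3*, *Apoe*, *Apom* and *Mttp*. They were chosen by name, by matching each symbol to an Ensembl gene identifier in GENCODE, and all 10 were found among the 48795 genes of the deposited tables. All 10 also passed the filter on low counts that left 15625 genes for testing. They were followed through 25 RNA sequencing libraries from liver and liver tumors of male mice of the inbred strain C57BL/6J. The study asked how a western diet changes gene expression and metabolism in livers exposed to a carcinogen.

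The carcinogen diethylnitrosamine (DEN) was injected into the abdomen at 25 mg/kg when the mice were 2 weeks old, and hepatocytes are the cells that activate it. After weaning the mice ate either a western diet (WD) or a control diet (CD), and were culled at 36 weeks, with up to 39 weeks of age given for some. The group nonDEN-L-CD was liver of untreated mice on the control diet (n = 3), and nonDEN-L-WD was liver of untreated mice on the western diet (n = 4). DEN-L-CD was liver of DEN-injected mice on the control diet (n = 4), in which tumors were too small to be cut away and may be part of the tissue. DEN-PT-WD was peritumoral liver (n = 8) and DEN-T-WD tumor tissue (n = 6), both of DEN-injected mice on the western diet. The labels do not say which tumor and peritumoral samples came from the same mouse, so p-values measure the spread between these samples. Library totals ranged from 21530083 to 38074411 expected counts, and the lowest count of any member in any library was 1273, so depth did not limit these genes. All samples were pieces of whole tissue, in which fewer cells of a type and less RNA per cell cannot be told apart.

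Hepatocytes make much of the lipoprotein in plasma. MTTP, the microsomal triglyceride transfer protein, loads lipid onto apolipoprotein B as it is made, and the particle leaves the cell as very low density lipoprotein. APOC2 activates lipoprotein lipase, which unloads triglyceride from the particle in tissues, while APOC3 slows this step and APOA5 promotes it. APOE carries remnants back to receptors on the liver. APOA1 and APOA2 are the main proteins of high density lipoprotein, and APOM on the same particle carries the signalling lipid sphingosine 1-phosphate.

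The 10 genes together took a large share of the liver's transcripts, and the share was spread very unevenly among them. RSEM's TPM values express the abundance of each gene per length, as a part of all transcripts in the library. The summed share was 3.11% ± 0.14 (SD, n = 3) of all TPM in nonDEN-L-CD, 3.84% ± 0.23 (n = 4) in nonDEN-L-WD and 3.71% ± 0.077 (n = 4) in DEN-L-CD. It was 4.48% ± 0.42 (n = 8) in DEN-PT-WD and 5.03% ± 1.09 (n = 6) in DEN-T-WD. The 3 nonDEN-L-CD libraries, at 3.00% to 3.27%, lay below all libraries of the other groups but 1, which was DEN-T-WD replicate 5 at 2.89%. Without that library the tumor mean was 5.46%. *Apoe*, *Apoa1* and *Apoa2* were the most abundant members in every group: in nonDEN-L-CD their mean levels were 10240, 6584 and 8146 TPM, ranking 16 to 32 among all genes in single libraries. *Apom* and *Mttp* stood at the other end, at 152 and 139 TPM.

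**Figure D1:**
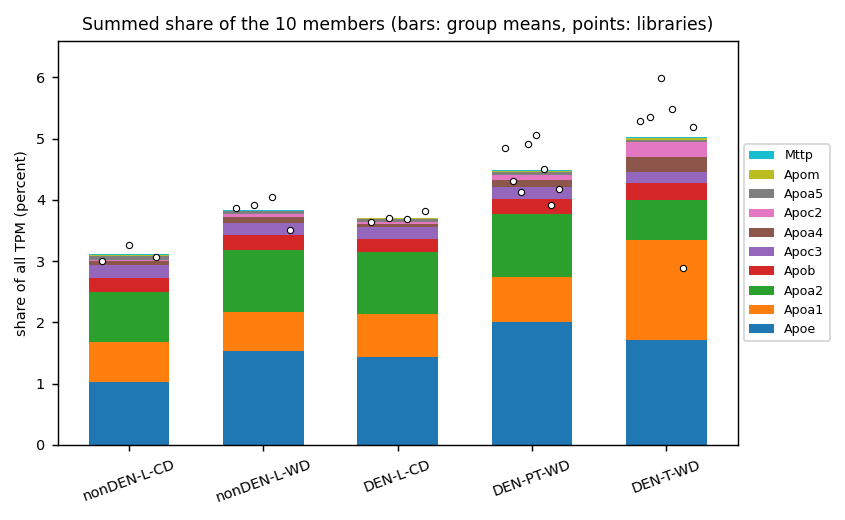
Summed share of all TPM (percent, y axis) taken by the 10 members in each group (x axis); coloured segments are group means per gene and white points are single libraries. Means run from 3.11% in nonDEN-L-CD to 5.03% in DEN-T-WD, where 1 tumor library lies at 2.89%, and the *Apoa1* segment is widest in tumors.

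Levels below are in TPM, and differences are log2 fold changes from edgeR's quasi-likelihood test on counts, with their standard errors and with Benjamini-Hochberg adjustment over the 15625 genes. A gene was called at an adjusted p of at most 0.05. The scales differ: on log2(TPM + 1) the median of all genes lay 0.16 higher in DEN-PT-WD against nonDEN-L-WD than in the count test, 0.21 higher against DEN-L-CD, 0.24 higher when DEN-T-WD was set against nonDEN-L-WD and 0.12 higher for the interaction of DEN with diet. A TPM level of peritumoral or tumor tissue is therefore to be read against that shift. Between tumors and peritumoral liver the shift was 0.08.

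**Figure D2:**
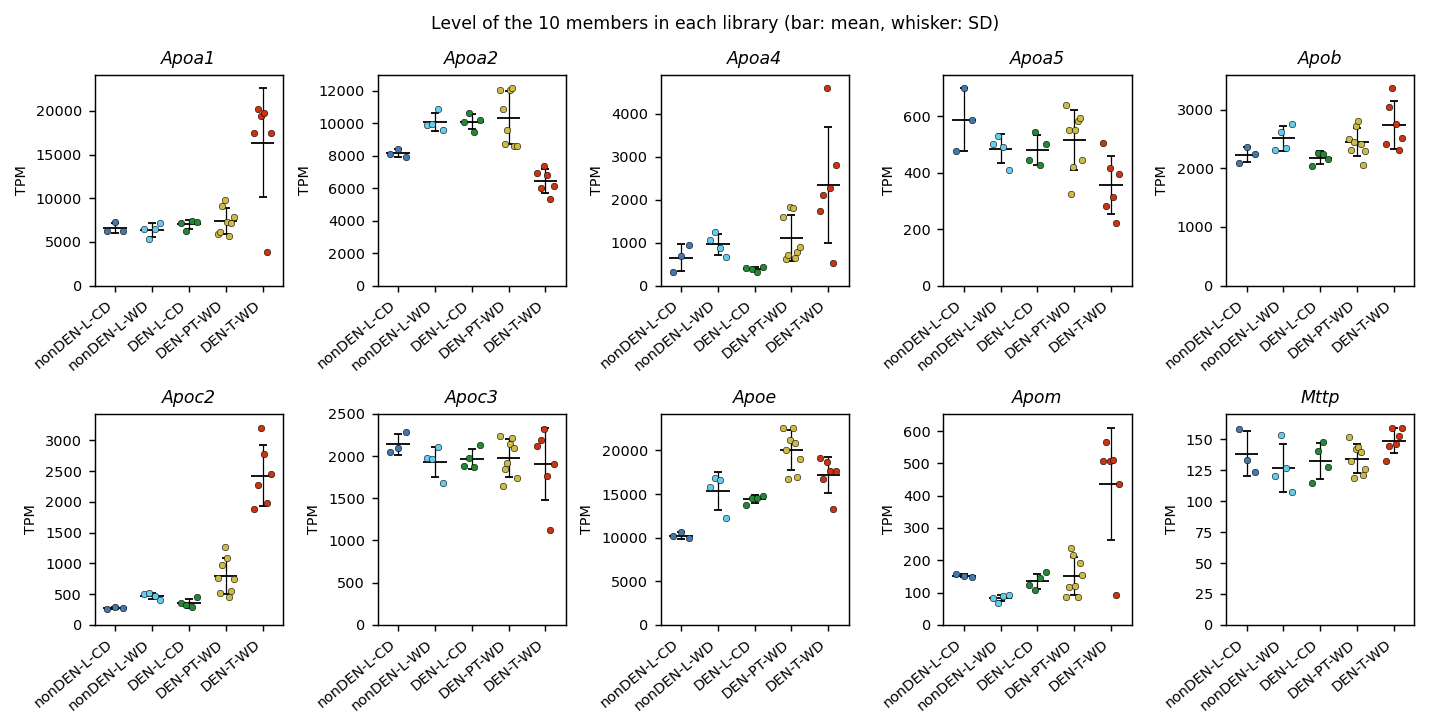
TPM (y axis, linear, from 0) of each member in each library, by group (x axis); points are libraries, horizontal bars are group means and whiskers are SDs. *Apoc2* in the 6 tumors lies at 1881 to 3206 TPM, above every other library, and 1 tumor has low *Apoa1*, *Apoa4* and *Apom*.

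Most calls came in tumors. Against peritumoral liver, 4 of the 10 members were higher and 3 were lower in DEN-T-WD, while 37.7% of all genes tested were called in this comparison, 19.5% higher and 18.1% lower. The 4 that rose, *Apoa1*, *Apoa4*, *Apoc2* and *Apom*, all passed a log2 fold change of 1, which 7.9% of all genes did in either direction. The 3 that fell, *Apoa2*, *Apoa5* and *Apoe*, did so by less than that, and *Apob*, *Apoc3* and *Mttp* were not called. The median change of the 10 was 0.04, beside 0.01 over all genes tested.

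Transcripts for the proteins of high density lipoprotein moved in opposite directions. *Apoa1*, whose product is the structural protein of the particle, was at 17425, 20212, 19364, 19776, 3865 and 17450 TPM in tumor replicates 1 to 6. In peritumoral liver it ranged from 5614 to 9745 TPM with a median of 7259. In 5 tumors the level lay well above every peritumoral library and in replicate 5 below all of them. The log2 fold change was 1.04 (SE 0.24, edgeR adjusted p = 0.00169), and it was 1.25 without replicate 5.

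*Apoa2*, which encodes the second protein of the particle, was lower in all 6 tumors. The tumors held 5348 to 7351 TPM with a median of 6478, and peritumoral liver 8594 to 12154 with a median of 10235. The groups did not overlap, and the log2 fold change was -0.80 (SE 0.11, edgeR adjusted p = 5.57e-06). The *Apoa1* to *Apoa2* ratio of TPM was 0.81 ± 0.050 (SD, n = 3) in nonDEN-L-CD, 0.63 ± 0.091 (n = 4) in nonDEN-L-WD, 0.70 ± 0.081 (n = 4) in DEN-L-CD and 0.74 ± 0.24 (n = 8) in DEN-PT-WD. In tumors it was 2.49 ± 0.92 (n = 6), with replicate 5 at 0.72 and the other 5 tumors at 2.51 to 3.36.

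*Apom* was higher in tumors too. Its level was 507, 566, 507, 512, 91.8 and 437 TPM in tumor replicates 1 to 6, against 86.5 to 238 in peritumoral liver, where the median was 137. Again 5 tumors lay above all peritumoral libraries, and replicate 5 within their range. The log2 fold change was 1.42 (SE 0.29, edgeR adjusted p = 0.000576), and 1.63 without replicate 5.

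**Figure D3:**
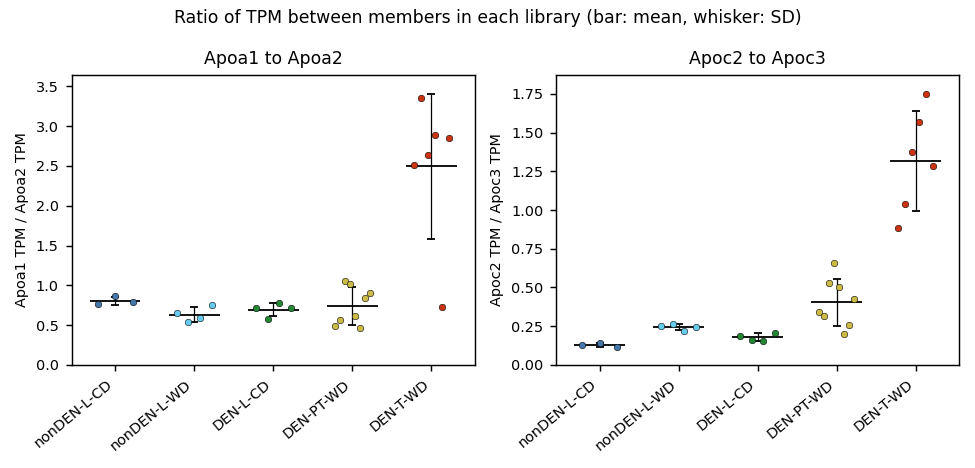
Ratio of *Apoa1* to *Apoa2* TPM and of *Apoc2* to *Apoc3* TPM (y axes) in each library, by group (x axis); points are libraries, horizontal bars are means and whiskers are SDs. Of the 6 tumors 5 lie at 2.51 to 3.36 for *Apoa1* to *Apoa2* and 1 at 0.72, and all 6 tumors lie above the peritumoral libraries for *Apoc2* to *Apoc3*.

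Among the genes that govern triglyceride unloading, the lipase activator rose and the inhibitor was not called. *Apoc2* was at 1881, 2272, 3206, 2770, 1978 and 2452 TPM in tumor replicates 1 to 6, and at 447 to 1259 TPM with a median of 753 in peritumoral liver. The groups did not overlap, and replicate 5 was not apart here. The change of *Apoc2*, 2.83-fold (SE of the log2 fold change 0.19, edgeR adjusted p = 3.14e-06), was the largest of the 10 with all 6 tumors, while without replicate 5 that of *Apom*, 3.10-fold, exceeded it at 2.97-fold. *Apoc3* was at 1128 to 2327 TPM in tumors and 1645 to 2243 in peritumoral liver, and its log2 fold change was -0.18 (SE 0.12, edgeR adjusted p = 0.273). The *Apoc2* to *Apoc3* ratio of TPM was 0.13 ± 0.010 (SD, n = 3) in nonDEN-L-CD, 0.24 ± 0.018 (n = 4) in nonDEN-L-WD, 0.18 ± 0.026 (n = 4) in DEN-L-CD, 0.40 ± 0.15 (n = 8) in DEN-PT-WD and 1.32 ± 0.32 (n = 6) in DEN-T-WD. The lowest tumor, at 0.89, lay above the highest peritumoral library, at 0.66. A readthrough gene, *Gm44805*, shares 78.3% of the 50-base words of *Apoc2* transcripts, so reads may be divided between them. In no library did RSEM give it more than 8.07% of the *Apoc2* count. That count is RSEM's own division of the shared reads, so it does not bound how many were misassigned.

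*Apoa5*, whose product promotes lipase action, fell in tumors. It ranged from 221 to 504 TPM there, with a median of 355, and from 326 to 641 with a median of 551 in peritumoral liver. The groups overlapped, and the log2 fold change was -0.65 (SE 0.16, edgeR adjusted p = 0.00231). *Apoa4*, which encodes a protein of triglyceride-rich particles and high density lipoprotein, varied widely between libraries. Tumor replicates 1 to 6 held 1735, 2109, 4598, 2285, 520 and 2813 TPM, and peritumoral liver 610 to 1822 with a median of 843. The log2 fold change was 1.00 (SE 0.34, edgeR adjusted p = 0.0251). Without tumor replicate 3, the highest, it was 0.66 (edgeR adjusted p = 0.124), and without replicate 5, the lowest, it was 1.22 (edgeR adjusted p = 0.00167). A fit of the 2 groups alone gave an adjusted p of 0.0619 by edgeR. With the replicate number as a block the change was 0.80 (edgeR adjusted p = 0.195). Leaving out replicate 3 also took *Apoa1* under a log2 fold change of 1, so that 2 members rather than 4 passed it, and so did leaving out peritumoral replicate 6.

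Neither gene at the core of particle assembly was called. *Apob*, the structural protein gene of very low density lipoprotein, was at 2305 to 3361 TPM in tumors and 2055 to 2807 in peritumoral liver, with a log2 fold change of 0.05 (SE 0.11, edgeR adjusted p = 0.746). *Mttp* was at 132 to 160 TPM in tumors and 118 to 152 in peritumoral liver, with a log2 fold change of 0.03 (SE 0.077, edgeR adjusted p = 0.83). Both ranges overlapped. *Apoe* fell slightly, from a median of 20455 TPM (16708 to 22614) in peritumoral liver to 17616 (13280 to 19175) in tumors, with a log2 fold change of -0.33 (SE 0.10, edgeR adjusted p = 0.0125). That call was lost on the TPM scale (limma adjusted p = 0.233) and in a fit of the 2 groups alone (edgeR adjusted p = 0.0755).

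**Figure D4:**
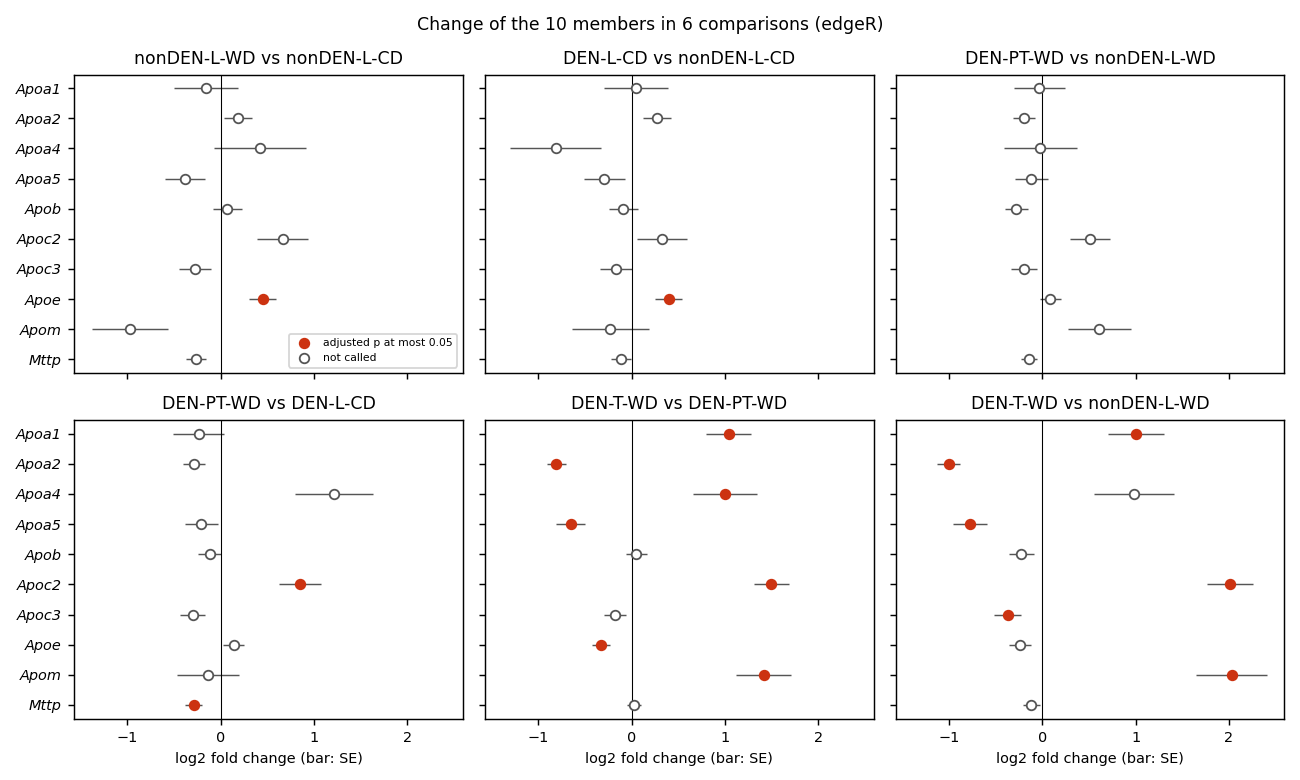
Log2 fold change (x axis, first group against second) of the 10 members (y axis) in 6 comparisons; points are edgeR estimates, bars are SEs, and filled red points had an adjusted p of at most 0.05. Called members number 1, 1, 0 and 2 in the 4 comparisons of non-tumor liver, 7 for tumors against peritumoral liver and 6 for tumors against untreated western-diet liver.

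Against nonDEN-L-WD, which shares the tumor samples with the comparison above, 3 members were higher and 3 lower in tumors, where 49% of all genes tested were called, 25.9% higher and 23.1% lower, and 15.7% passed a log2 fold change of 1 as well. *Apoc2* had a log2 fold change of 2.01 (edgeR adjusted p = 7.71e-07), *Apom* of 2.03 (edgeR adjusted p = 0.00013) and *Apoa1* of 1.01 (edgeR adjusted p = 0.0078), the last of which was lost in a fit of the 2 groups alone (edgeR adjusted p = 0.0701). *Apoa2*, at 0.50 times the nonDEN-L-WD level (edgeR adjusted p = 9.24e-07), and *Apoa5*, with a log2 fold change of -0.77 (edgeR adjusted p = 0.00137), were lower. *Apoc3* was also called, at -0.37 (edgeR adjusted p = 0.0359), but not on the TPM scale, where its change was -0.05 (limma adjusted p = 0.775). That call was also lost in a fit of the 2 groups alone (edgeR adjusted p = 0.136) and without nonDEN-L-WD replicate 1, 3 or 4 or tumor replicate 4 or 6 (edgeR adjusted p of 0.0542 to 0.0942). *Apoa4*, at 0.98 (edgeR adjusted p = 0.0616), was not called by edgeR with all 6 tumors, but was called with them by DESeq2, at 0.98 (adjusted p = 0.0453), and on the TPM scale, at 1.06 (limma adjusted p = 0.0454). Without replicate 5 edgeR called it, at 1.20 (edgeR adjusted p = 0.00747). Of the 4 that passed a log2 fold change of 1, *Apoa1* and *Apoa2* did not pass it without tumor replicate 2 or without tumor replicate 6.

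Tumor replicate 5 stood apart from the other 5 tumors, and not by all members alike. It held 18.2% of their mean TPM for *Apom*, 19.2% for *Apoa4* and 20.5% for *Apoa1*. For *Apoc3*, *Apoa5*, *Apoe*, *Apoc2*, *Apoa2* and *Apob* it held 54.7%, 57.7%, 73.9%, 78.6%, 80.4% and 81.8%, and for *Mttp* 103%. Hepatocyte markers moved too. Of 8 listed, 7 were found, and their summed level was 31141 TPM in this library against a tumor median of 108678, with albumin, *Alb*, at 21878 TPM beside 82845 to 99736 in the other tumors. *Cps1* and *Ass1*, which encode urea cycle enzymes of hepatocytes, were at 660 and 1378 TPM beside 373 to 528 and 464 to 731 in the other tumors. The other 4 markers lay below all other tumors, with the alpha-1 antitrypsin genes *Serpina1a* at 2079 TPM beside 6837 to 8548 and *Serpina1c* at 2363 beside 4494 to 5557. *Cyp2e1*, a cytochrome P450 enzyme, was at 985 TPM beside 1643 to 2489 and *Ttr*, transthyretin, at 1798 beside 2334 to 3662. In the other groups the hepatocyte sum was between 44449 and 73547 TPM. Most of the sum was *Alb*, with a median of 89681 TPM in tumors and 40458 in peritumoral liver, and the other 6 markers did not all move with it. *Serpina1a* was higher in tumors as well, with medians of 7663 and 3502 TPM, and *Serpina1c* had medians of 4722 and 4826. The remaining 4 had lower medians in tumors. *Cps1* had a median of 487 TPM in tumors and 644 in peritumoral liver, *Ass1* of 615 and 1247, *Cyp2e1* of 1888 and 5310, and *Ttr* of 2889 and 3548. Markers of other cells also differed in replicate 5. Of the macrophage markers *Adgre1*, *Cd68*, *Trem2*, *Lyz2* and *Vsig4* lay above all other tumors, *Lyz2* at 379 TPM beside 135 to 280. *Cd63* lay below them, at 91.5 TPM beside 178 to 215, and the rest were within their range. Of the endothelial markers *Clec4g*, *Stab2* and *Kdr* lay below all other tumors, and *Pecam1* was within their range. The part of all these markers in the results was not tested.

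Markers of other cells differed between groups as well. The 10 macrophage and Kupffer cell markers summed to 195 to 312 TPM in nonDEN-L-CD, 216 to 427 in nonDEN-L-WD, 236 to 415 in DEN-L-CD, 322 to 760 in DEN-PT-WD and 486 to 796 in DEN-T-WD. The *Cd63* median was 196 TPM in tumors and 45.6 in peritumoral liver, and *Lyz2*, *Cd68*, *Trem2* and *Gpnmb* also had higher tumor medians. *Clec4f* (44.95 TPM in tumors and 79.3 in peritumoral liver), *Cd5l* (117 and 140), *Vsig4* (25.9 and 44.8), *Marco* and *Adgre1* had lower ones. Macrophages also make *Apoe*, and the part of these cells in its level was not tested. Enterocytes make *Apoa1*, *Apoa4* and *Apob*. Of the 6 enterocyte markers the sum was 94.7 to 129 TPM in nonDEN-L-CD and 245 to 293 in nonDEN-L-WD, almost all of it *Fabp2*, while the brush border genes *Sis*, *Alpi* and *Lct* had group medians of 0 to 0.015 TPM. Single libraries held more, with *Sis* and *Alpi* at 8.99 and 6.94 TPM in tumor replicate 2, 2.10 and 3.09 in tumor replicate 6, 5.70 and 10.6 in peritumoral replicate 6 and 2.24 and 2.82 in peritumoral replicate 1. In tumor replicates 1, 3 and 4, where *Sis* was at 0 to 0.01 TPM and *Alpi* and *Lct* at 0, *Apoa1* was at 17425 to 19776 TPM and *Apoa4* at 1735 to 4598, and in replicate 5, where all 3 were at 0, they were at 3865 and 520. *Vil1*, the villin gene and also an enterocyte marker, went the other way in replicate 5, at 7.67 TPM beside 0.30 to 1.99 in the other tumors. *Fabp2* and *Cdh17* were lower in replicate 5, at 106 and 1.17 TPM beside 217 to 335 and 4.13 to 12.2 in the other tumors. *Cdh17*, another enterocyte marker, had a median of 8.79 TPM in tumors and 0.01 to 1.57 in the other groups. The part of the enterocyte markers in the results was not tested. In the other groups the enterocyte sum was 121 to 196 TPM in DEN-L-CD, 133 to 339 in DEN-PT-WD and 115 to 344 in DEN-T-WD. The 9 pancreas acinar markers reached 6056 TPM in 1 peritumoral library and were as low as 9.74 in another. The 5 bile duct markers summed to 32.4 to 39.1 TPM in nonDEN-L-CD, 72.7 to 324 in peritumoral liver and 385 to 833 in tumors, most of it *Spp1*. Of the others, *Sox9* and *Epcam* had higher medians in tumors, at 4.34 and 1.71 TPM beside 1.26 and 1.26 in peritumoral liver, and the keratin genes *Krt19* and *Krt7* lower ones, at 2.14 and 0.595 beside 3.04 and 0.79. The 6 stellate cell and fibroblast markers summed to 158 to 174 TPM in nonDEN-L-CD, 242 to 457 in peritumoral liver and 223 to 299 in tumors. The 4 endothelial markers summed to 78.6 to 96.9, 109 to 139 and 89.3 to 121 TPM in the same order. Both lists had a lower median in tumors than in peritumoral liver, 261 and 311 TPM for the first and 117 and 135 for the second. Their genes did not all go that way. *Dcn* (145 TPM in tumors and 226 in peritumoral liver), *Lrat*, *Clec4g* (49.2 and 67.3) and *Stab2* had lower medians in tumors. *Col1a1* (16.9 and 7.82), *Col3a1* (51.8 and 32.4), *Pdgfrb*, *Reln*, *Pecam1* (24.7 and 18.15) and *Kdr* had higher ones.

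Few members were called for diet or DEN by themselves. In untreated mice, 1 of 10 members was called for the western diet (nonDEN-L-WD compared with nonDEN-L-CD), where 23.2% of all genes tested were called, 11.2% higher and 12% lower. No member passed a log2 fold change of 1 as well, which 5.28% of all genes did. The member was *Apoe*, at 15833, 16802, 16653 and 12213 TPM on the western diet and 10151, 10641 and 9929 on the control diet. The groups did not overlap, and the log2 fold change was 0.45 (SE 0.14, edgeR adjusted p = 0.0251). The call was lost without any 1 of the 3 nonDEN-L-CD libraries (edgeR adjusted p = 0.0542, 0.087 and 0.0772), without nonDEN-L-WD replicate 3 (0.0706) and with no filter on low counts (0.063). *Apom* was at 84.3, 68.7, 87.9 and 92.7 TPM on the western diet and 157, 152 and 148 on the control diet, with no overlap, a log2 fold change of -0.97 (SE 0.41) and an edgeR adjusted p of 0.0903. Its spread in the fit over 5 groups is shared with the tumors, and a fit of the 2 diet groups alone gave an edgeR adjusted p of 0.00861. *Apoc2* likewise had groups that did not overlap, at 409 to 518 TPM on the western diet and 259 to 290 on the control diet, a log2 fold change of 0.66 (SE 0.27) and an edgeR adjusted p of 0.0794, or 0.00214 from the 2 groups alone. *Apoa5* was called in that smaller fit too, at -0.38 (edgeR adjusted p = 0.0464), so that it called 4 members rather than 1, beside 20.6% of the genes in that fit.

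On the control diet, 1 of 10 members was called after DEN (DEN-L-CD compared with nonDEN-L-CD), where 21.3% of all genes tested were called, 9.12% higher, 12.2% lower and 4.7% past a log2 fold change of 1. It was again *Apoe*. Its level was 13758, 14523, 14576 and 14769 TPM after DEN, above all 3 untreated libraries, with a log2 fold change of 0.40 (SE 0.14, edgeR adjusted p = 0.0471). The call was lost when any 1 of these 7 libraries was left out (edgeR adjusted p of 0.0751 to 0.139). The 2 comparisons share the nonDEN-L-CD samples. *Apoa4* had its lowest levels here, at 401, 386, 311 and 422 TPM, beside 317, 688 and 951 in nonDEN-L-CD, and the log2 fold change of -0.81 (SE 0.49, edgeR adjusted p = 0.247) did not pass the test.

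In livers of mice on the western diet, no member passed edgeR's test for DEN (DEN-PT-WD against nonDEN-L-WD, 0 of 10 called, with 12.4% of all genes tested called, 7.5% higher, 4.87% lower and 2.76% past a log2 fold change of 1), although *Apoc2*, with a log2 fold change of 0.51 (SE 0.22, edgeR adjusted p = 0.12), was called on the TPM scale at 0.66 (limma adjusted p = 0.0318). DESeq2 called 0 as well, and 2 members, *Apob* and *Apoc2*, had an unadjusted edgeR p under 0.05. In livers of DEN-injected mice on the 2 diets (DEN-PT-WD against DEN-L-CD, 10.6% of all genes tested called), 2 members were called. Of these 1 was higher and 1 lower, beside 6.8% and 3.76% of all genes. Past a log2 fold change of 1 lay 1.9% of all genes and no member. DEN-PT-WD was liver beside tumors and DEN-L-CD may hold small tumors, so diet and tissue cannot be told apart here. The test for DEN above and the interaction below use the same peritumoral samples, and there DEN and tissue cannot be told apart. *Apoc2* rose, with a log2 fold change of 0.85 (SE 0.22, edgeR adjusted p = 0.0179), from 353, 321, 284 and 445 TPM. That call was lost without DEN-L-CD replicate 2 (edgeR adjusted p = 0.0527) or replicate 3 (0.0726). *Mttp* fell on the count scale by 0.29 (SE 0.087, edgeR adjusted p = 0.035), but on the TPM scale its sign turned, to 0.02 (limma adjusted p = 0.86), and the call was lost without DEN-L-CD replicate 2, 3 or 4 or DEN-PT-WD replicate 3 or 5 (edgeR adjusted p of 0.0521 to 0.132). *Apoa4* had groups that did not overlap and a change of 1.21 (SE 0.42, edgeR adjusted p = 0.0632), and was called by DESeq2 (adjusted p = 0.0225), on the TPM scale (limma adjusted p = 0.0129), in a fit of the 2 groups alone (edgeR adjusted p = 0.0265) and without peritumoral replicate 6 (edgeR adjusted p = 0.0447). The interaction of DEN with diet was called for 0 of 10 members by edgeR, beside 8.39% of all genes tested (4.65% higher, 3.74% lower and 2.75% past a log2 fold change of 1), and by DESeq2 and limma for 0 as well. Only *Apoa2* had an unadjusted edgeR p under 0.05 for it, with an adjusted p of 0.125.

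Set in the order of mean TPM, most neighbouring groups did not differ beyond their spread. For *Apoa1*, *Apoa4*, *Apoc2* and *Apom* the single step that passed the test was the highest, from the next group to the tumors. For *Apoa2* it was the lowest step, from the tumors at 6437 TPM to nonDEN-L-CD at 8146. For *Apoa5* the lowest step, from the tumors, and the highest, to nonDEN-L-CD, both passed. No step passed for *Apob*, whose group means ran from 2178 TPM in DEN-L-CD to 2731 in the tumors. For *Apoe* the lowest step, from nonDEN-L-CD to DEN-L-CD, and the highest, from the tumors to DEN-PT-WD, passed. For *Apoc3* and *Mttp*, whose group means spanned 1.12-fold and 1.18-fold, steps passed on the count scale that ran against the TPM order or were small in it, so their order is not settled by these data. On the count scale, *Mttp* was higher in nonDEN-L-CD than in peritumoral liver, by 0.40 (edgeR adjusted p = 0.00157).

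Of the members 4 lie side by side on chromosome 9 (GENCODE, GRCm38) and did not move as a block. *Apoa1* lies at chr9:46228580-46230466 on the plus strand, *Apoc3* at chr9:46232933-46235636 on the minus strand, *Apoa4* at chr9:46240696-46243459 on the plus strand and *Apoa5* at chr9:46268633-46271919 on the plus strand. The starts of *Apoc3*, *Apoa4* and *Apoa5* are 7.1, 12.1 and 40.1 kb from that of *Apoa1*. In tumors against peritumoral liver *Apoa1* and *Apoa4* rose, *Apoc3* between them was not called and *Apoa5* fell. *Apoe*, at chr7:19696109-19699188, and *Apoc2*, at chr7:19671579-19677941, both on the minus strand with starts 21.2 kb apart, also differed in direction. *Apoa2* (chr1:171225054-171226379, plus strand), *Mttp* (chr3:138089854-138144968, minus), *Apob* (chr12:7977648-8016835, plus) and *Apom* (chr17:35128997-35132050, minus) lie alone.

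**Figure D5:**
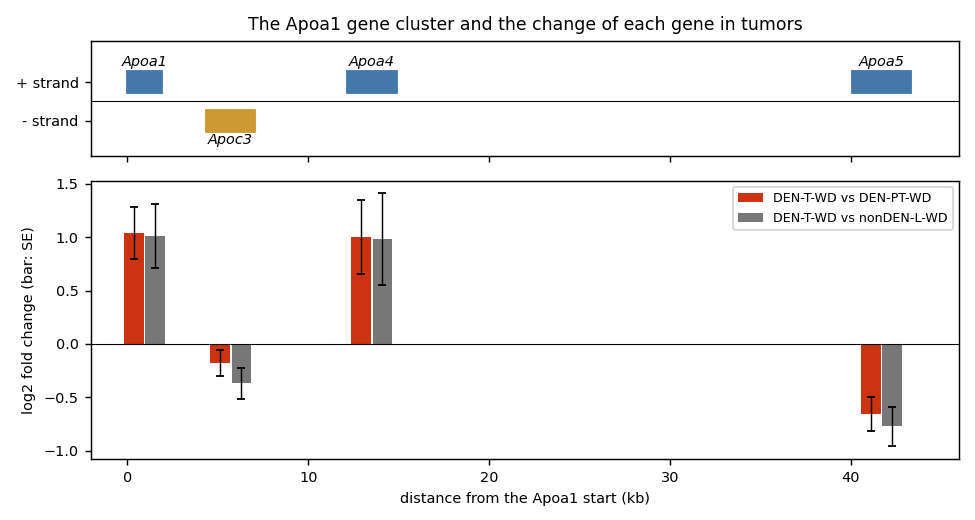
Upper panel: position and strand of 4 members by distance from the *Apoa1* start (kb, x axis). Lower panel: log2 fold change in tumors (y axis; bars are edgeR estimates, whiskers SEs) against peritumoral liver (red) and against untreated western-diet liver (grey). *Apoa1* and *Apoa4* lie near 1, *Apoc3* and *Apoa5* below 0.

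The 200 bases before the start of the gene in RefSeq or GENCODE, whichever lies further upstream, are shown for 3 members that tumors separate, the *Apoa1* that rose and the *Apoa2* and *Apoa5* that fell. The sequences are RefSeq's, on GRCm38.p6 and on the plus strand, and capitals mark a TATA box. The *Apoa1* stretch is chr9:46228380-46228579, the *Apoa2* stretch chr1:171224854-171225053 and the *Apoa5* stretch chr9:46268408-46268607.
Apoa1: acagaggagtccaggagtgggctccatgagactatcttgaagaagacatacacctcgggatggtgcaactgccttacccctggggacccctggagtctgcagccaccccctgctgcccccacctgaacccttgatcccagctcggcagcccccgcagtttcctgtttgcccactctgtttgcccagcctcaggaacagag
Apoa2: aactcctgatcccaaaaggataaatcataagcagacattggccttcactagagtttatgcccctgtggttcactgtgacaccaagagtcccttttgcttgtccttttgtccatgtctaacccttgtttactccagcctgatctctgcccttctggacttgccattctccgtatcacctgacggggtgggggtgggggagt
Apoa5: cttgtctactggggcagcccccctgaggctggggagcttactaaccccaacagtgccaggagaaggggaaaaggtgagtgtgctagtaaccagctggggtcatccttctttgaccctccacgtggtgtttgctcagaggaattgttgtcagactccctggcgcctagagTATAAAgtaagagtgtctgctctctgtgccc
The 4 motifs given here were searched on both strands in these windows. TATAAA, the TATA box, was found in *Apoa5*, 31 bases before its start, and in 9.14% of 32851 RefSeq promoter windows of the same length. The window of *Apob*, which was not called in tumors and is not shown, also held it, 31 bases before its start. GTTAAT, part of an HNF1 site (5.33% of windows), CAAAGTCC, the core of an HNF4 site (0.931%), and AGGTCA, part of a nuclear receptor site (11.4%), were in none of the 3 windows. No match says only that these letters are not in this window.

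Related genes were grouped by role, and their counts are to be read against the 19.5% of all genes tested that were higher and the 18.1% that were lower in tumors. In tumors against peritumoral liver, the 13 genes for enzymes that remodel lipoproteins in plasma, and their inhibitors, had 3 higher and 8 lower, with a median log2 fold change of -0.40 beside 0.01 over all genes tested. *Lpl*, lipoprotein lipase, rose by 1.02 (edgeR adjusted p = 0.000269) and *Angptl8*, a lipase inhibitor, by 1.21 (0.0139). *Pon1*, an esterase carried on high density lipoprotein, fell by 1.61 (edgeR adjusted p = 1.37e-07), *Lipg*, endothelial lipase, by 1.54 (0.00136) and *Lipc*, hepatic lipase, by 1.24 (1.43e-08). Of 16 genes for particle assembly and trafficking, 8 were higher and 3 lower, with a median of 0.20 and none past a log2 fold change of 1. Of 13 other apolipoprotein genes tested, 1 was higher and 6 lower (median -0.42). Of 12 receptor and exporter genes 3 were higher and 4 lower (median -0.11), and of 15 regulators 1 was higher and 5 lower (median -0.21).

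In non-tumor liver the same 69 related genes had 11 higher and 13 lower on the western diet alone, beside 11.2% and 12% of all genes tested. With DEN alone there were 10 and 13, beside 9.12% and 12.2%. For DEN-PT-WD against nonDEN-L-WD there were 5 and 8, beside 7.5% and 4.87%, and against DEN-L-CD 7 and 2, beside 6.8% and 3.76%. *Srebf1*, which encodes a regulator of lipid synthesis genes, rose by 2.43 on the western diet (edgeR adjusted p = 0.000278) and by 2.03 with DEN (edgeR adjusted p = 0.0012). *Angptl4*, a lipase inhibitor, fell by 1.12 and 1.14 (edgeR adjusted p = 0.000198 and 0.000157), and *Syvn1*, which encodes a ubiquitin ligase of the endoplasmic reticulum, by 1.54 and 2.03 (0.000653 and 5.04e-05). *Vldlr*, a receptor for triglyceride-rich particles, rose by 2.96 on the western diet (edgeR adjusted p = 0.00134). Its level was low, at 0.11 to 0.52 TPM in nonDEN-L-CD and 0.58 to 2.24 in nonDEN-L-WD. In DEN-PT-WD against DEN-L-CD, 6 of the 12 receptor and exporter genes were higher, beside the 6.8% of all genes tested, among them the sterol exporter *Abcg1*, by 1.08 (edgeR adjusted p = 0.00198), and *Lpl* rose by 1.24 (0.0031).

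Some members kept pace with each other within groups. Over the deviations of log2 CPM from group means, *Apoa1* and *Apom* had r = 0.87 and rho = 0.81 in the 24 libraries without tumor replicate 5 (r = 0.95 with it), and *Apoa2* and *Apoe* r = 0.79 and rho = 0.75 (r = 0.82 with it). *Apoa1* and *Apoa5* went opposite ways, with r = -0.62 and rho = -0.62, and tumor replicate 5 alone turned this to r = 0.33. The libraries share a normalization, and these are descriptions. Over all 25 libraries, the genes outside the group most like *Apoc2* were *Sptan1*, *Rogdi* and *Entpd2* (r = 0.96 each). Those most like *Apom* were *Itih2*, *Ahsg* and *Gm8893* (r = 0.97, 0.97 and 0.94). Those most like *Apoa4* were *Gm10680*, *Cntnap1* and *Scarb1* (r = 0.98, 0.94 and 0.86). *Gm10680* lies antisense to *Apoa4* within the same stretch, and since the use of strand in counting is not given in the sources used here, the reads of the 2 genes may not be told apart. RSEM gave *Gm10680* at most 0.878% of the *Apoa4* count, which is again its own division of the reads.

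The transcript length that RSEM weighted for *Apoe* differed between libraries of untreated and DEN-injected mice. The length was 1068 to 1072 bases in nonDEN-L-CD and 1063 to 1071 in nonDEN-L-WD, and 1028 to 1042 in DEN-L-CD, 967 to 1044 in DEN-PT-WD and 1009 to 1049 in DEN-T-WD. The libraries of DEN-injected mice did not overlap with those of untreated mice. *Apoa5* shifted the other way, from 2441 to 2477 bases in untreated mice to 2486 to 2515 in DEN-injected mice, again without overlap. For *Apoa1* the length stayed between 1032 and 1035 bases in all groups. For *Apoa4* and *Apom* it was 1815 and 1013 bases in every library. For *Apoa2*, *Apob*, *Apoc2*, *Apoc3* and *Mttp* the ranges of untreated and DEN-injected mice overlapped. The share of all genes whose lengths part these mice without overlap was not counted. This length is an average over annotated isoforms weighted by their estimated shares, it enters TPM, and it was looked at after the levels were seen and not tested.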

How the data were processed

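Libraries from polyadenylated RNA of 25 samples were sequenced single-end by the authors, who checked reads with FastQC and used STAR and RSEM on GRCm38; the aligner and counter versions, strand use and annotation release are not given in the sources used here. The deposited expected counts per gene are not normalized, and the deposited TPM values are corrected for length and library. RSEM's length per gene, as deposited, was used as a description. Expected counts were rounded, and edgeR 4.0.16 (R 4.3.3) served for the test (TMM, filterByExpr with a minimum count of 10, quasi-likelihood, 1 fit over 5 groups, 15625 genes). The procedure was tested on simulated data. Alternatives were DESeq2 1.42.0 (which the study's methods name), DESeq2 size factors, limma 3.58.1 on log2(TPM + 1), no filter, only the groups compared, the replicate number as a block, and each replicate left out. No pair of replicates agreed within sampling noise (lowest chi-square per degree of freedom 29.1 over 58 pairs).

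All 10 members are named. From the role lists up to 3 genes higher and 3 lower per comparison could be named: those with the largest change among called genes whose higher group averaged 100 normalized counts or more. A gene that this rule would name is counted in its list but is not reported here. For the 3 members with the widest range of group means, the 3 genes with the highest Pearson r of log2 CPM (prior count 2) are named. *Alb*, *Cps1*, *Ass1* and the other cell markers named came from marker lists, and which to name was chosen after their values were seen. The members and lists were chosen with earlier results of these data known. Promoters came from RefSeq, where 9 of 10 members matched. Descriptions used Python 3.11.15 with pandas 2.3.3.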

Additional observations from a re-analysis of the deposited data

Results flagged for a closer look

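In the tumors 3 values and 1 in DEN-L-CD lay far from the rest of their group by Dixon's ratio, out of 44 groups of values tested. Chance alone marks about 1 in 20 groups. *Apoa1* in DEN-T-WD replicate 5 was at 3865 TPM, with the other 5 tumors at 17425 to 20212. *Apom* in the same library was at 91.8 TPM, with the others at 437 to 566. The summed share of the 10 members there was 2.89% of TPM, with the others at 5.19% to 6.00%. The 3 values come from 1 library and include one another, since *Apoa1* is part of the sum. *Apoa1* in DEN-L-CD replicate 2 was at 6205 TPM, with the other 3 libraries at 7160 to 7341.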

How the results depend on the processing

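Across the alternatives that left out no replicate, 364 of 420 member changes kept their direction and side of the threshold, and with 1 replicate left out 759 of 810 did; the cause of the others was not tested. For the western diet alone the number of members called went from 1 to 0 with limma on log2(TPM + 1) and with no filter on low counts (which called 13.2% and 9.84% of the genes they fitted), to 4 with only the groups compared (20.6%) and to 2 with the replicate block (23.9%), which also put 1 past a log2 fold change of 1. For DEN alone it went from 1 to 0 with limma (10.6% of genes), no filter (8.79%) and the replicate block (22%), and to 2 with only the groups compared (25.5%). For DEN-PT-WD vs nonDEN-L-WD limma gave 1 in place of 0, beside 22.1% of genes. For DEN-PT-WD vs DEN-L-CD it went from 2 to 1 with no filter (3.77% of genes) and the replicate block (7.33%) and to 4 with only the groups compared (13.8%), and was 3 with DESeq2 (2221 genes called) and with limma (39.1%), which also called *Apoe* (0.47, limma adjusted p = 0.0249); past a log2 fold change of 1 there was 1 with DESeq2 and with only the groups compared, and 2 with limma. For DEN-T-WD vs DEN-PT-WD the 4 past a log2 fold change of 1 became 2 with limma and with the replicate block, under which *Apoa4* was no longer called there (0.80, edgeR adjusted p = 0.195), nor *Apoc3* for DEN-T-WD vs nonDEN-L-WD (-0.33, 0.0687). With each replicate left out, the number called ranged from 0 to 1 for the western diet alone, was 0 throughout for DEN alone, and ranged from 0 to 3 (past the fold, 0 to 1) for DEN-PT-WD vs DEN-L-CD; past the fold it ranged from 2 to 4 for both comparisons of tumors.

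Directions turned only for small changes. With limma on log2(TPM + 1) log2 fold changes became, for DEN-PT-WD vs nonDEN-L-WD, 0.20 for *Apoa1*, 0.022 for *Apoa2*, 0.10 for *Apoa4*, 0.063 for *Apoa5*, 0.032 for *Apoc3* and 0.091 for *Mttp*; for DEN-PT-WD vs DEN-L-CD, 0.052 for *Apoa1*, 0.018 for *Apoa2*, 0.077 for *Apoa5*, 0.16 for *Apob*, 0.0066 for *Apoc3*, 0.093 for *Apom* and 0.022 for *Mttp*, the last called by edgeR; for DEN-T-WD vs nonDEN-L-WD, 0.11 for *Apob*, 0.16 for *Apoe* and 0.24 for *Mttp* (limma adjusted p = 0.0389); and for the interaction of DEN with diet, 0.11 for *Apoa1*, 0.16 for *Apoc3* and 0.15 for *Mttp*. With the replicate block they became -0.023 for *Apoa1* in DEN-L-CD vs nonDEN-L-CD, 0.20 for *Apoa1* and 0.19 for *Apoa4* in DEN-PT-WD vs nonDEN-L-WD, 0.070 for *Apom* in DEN-PT-WD vs DEN-L-CD, -0.0058 for *Apob* and -0.0098 for *Mttp* in DEN-T-WD vs DEN-PT-WD, and 0.22 for *Apoa1*, 0.043 for *Apoc3* and 0.0032 for *Mttp* in the interaction. With each replicate left out, uncalled changes spanned 0: -0.061 to 0.13 for *Apob* in nonDEN-L-WD vs nonDEN-L-CD, -0.18 to 0.015 for *Mttp* in DEN-L-CD vs nonDEN-L-CD, -0.15 to 0.12 for *Apoa1* and -0.16 to 0.070 for *Apoa4* in DEN-PT-WD vs nonDEN-L-WD, -0.036 to 0.11 for *Apob* and -0.016 to 0.067 for *Mttp* in DEN-T-WD vs DEN-PT-WD, and -0.20 to 0.072 for *Apoa1*, -0.086 to 0.023 for *Apoc3* and -0.17 to 0.042 for *Mttp* in the interaction.

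The summed TPM share of the tumors was 2.75% without *Apoa1* and *Apoa2* and 3.31% without *Apoe*. In peritumoral liver the same 2 values were 2.71% and 2.48%, in DEN-L-CD 2.00% and 2.27%, on the western diet without DEN 2.19% and 2.30%, and in nonDEN-L-CD 1.64% and 2.09%. Replicate numbers are shared between groups in the labels but nothing says that they pair samples: the lowest correlation of same-numbered deviations was -0.11, 0.05, -0.15, -0.20, -0.23 and -0.19 in the 6 comparisons of 2 groups, and all samples correlated best with their own number only in DEN-L-CD vs nonDEN-L-CD (3 of 3). The block therefore stands only as an alternative.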
